A study of Mus musculus with 46 samples.

Results

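The comparison described here asked what rapamycin adds when it is given to mice that already live under dietary restriction (DR). Its members were the 12 mice on rapamycin and restriction together (Rapa + DR) and the 11 mice on restriction alone (DR), 23 of the 46 mice of the series, taken by their labels. All 23 were male C57BL6/J mice whose livers were collected at 8 months of age, after 6 months on their diets from 2 months of age. Restriction was by 40%, which leaves a ration of 60% of the ad libitum intake. One sentence of the published methods gives the ration the other way round, as 40%. Rapa + DR mice received microencapsulated rapamycin at 14 ppm in that ration, so the drug came with the food. Restricted mice were fed once a day, in the afternoon. The other 23 mice, 11 fed ad libitum (AL) and 12 fed ad libitum with the same rapamycin diet (Rapa), are used below to show where the response differed. Liver RNA was hybridised to Illumina MouseRef-8 v2 arrays, 1 array per mouse.

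Rapamycin binds the immunophilin FKBP12, and the pair inhibits the mTOR kinase in its complex 1, which couples amino acids, insulin and energy to protein synthesis and holds back autophagy. Dietary restriction lowers the same nutrient and insulin signals. In the liver it also calls on gluconeogenesis, amino acid breakdown and fatty acid oxidation between meals, and the daily meal sets the phase of the liver clock.

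Array quality was examined before the groups were compared. Levels are on a log2 scale, rebuilt from z-scores as described in the processing section, and the 2 groups had similar array SDs, with means of 1.38 ± 0.0917 (SD, n = 11) in DR and 1.41 ± 0.122 (SD, n = 12) in Rapa + DR, adjusted p = 0.48 by a two-sided permutation test over 3 array measures. Their background did differ. The most common dim signal lay between 79.1 and 90.3 signal units on the DR arrays and between 67 and 84 on the Rapa + DR arrays (difference -11.7, adjusted p = 0.00021). The 6 Rapa + DR arrays of replicates 7 to 12 lay below every DR array, at 67 to 73.1, while replicates 1 to 6 read 79.9 to 84. The share of probes above background was 37.5% ± 2.77 in DR and 41.3% ± 3.3 in Rapa + DR (adjusted p = 0.0111). Of the 9 marker lists, 8 had no called gene, and the Kupffer cell list had 1 of 20 (*Slc40a1*). Its mean level ran from 7.27 to 7.91 in DR and from 7.31 to 7.92 in Rapa + DR. The 14 tested hepatocyte markers averaged 13.1 to 14.6 in DR and 13 to 15.1 in Rapa + DR, although the probe for albumin read near background, at a mean of 6.66 in DR. Their median log2 change of -0.1 moved to -0.6 with array background as a covariate and to -0.23 without those 6 arrays. It was -0.0013 after quantile normalization and 0.04 when arrays were not divided by their SD. Liver RNA is a mixture, so fewer cells of a type and less RNA per cell cannot be told apart.

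**Figure D1:**
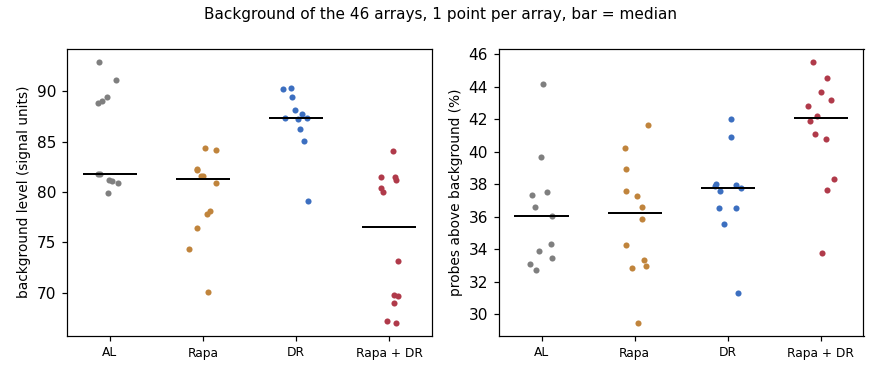
Background level of each array in signal units (left) and share of probes above background in percent (right), 1 point per array, bars at the group medians. The DR arrays lie between 79.1 and 90.3 signal units and the Rapa + DR arrays between 67 and 84.

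Rapamycin added a small set of changes to the restricted liver, and most of them were increases. A probe was called where the group medians differed by over 15% and limma's adjusted p was under 0.05. Of 14710 tested probes, 272 were called higher (1.85%) and 51 lower (0.347%). Counted by gene, with the brightest probe for each of 10279 genes, 187 were higher (1.82%) and 42 lower (0.409%), 2.23% in either direction. The changes were modest in size, with a median increase of 1.3-fold and a median decrease of 1.25-fold. Among the called genes only *Thrsp* passed a 2-fold change, and 11 in all passed 1.5-fold. All 12 Rapa + DR mice lay above the DR median for 109 of the 187 higher genes, and all 12 lay below it for 32 of the 42 lower genes. The ranges of the groups did not overlap for 6 genes (0.0584% of genes), all of them higher with rapamycin: *Pigr*, *Pls3*, *Prkag2*, *Hnrnpa1*, *Pheta1* and *Me1*, the last with an adjusted p of 0.0542 and so not called. These 6 were picked out after their values were seen.

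Brightness set the higher and lower genes apart. The higher genes had a median log2 level of 7.55 and the lower genes one of 10, against 7.04 over all tested genes. Without the 6 Rapa + DR arrays of lowest background, 277 probes were higher and 21 lower, and 180 of the 272 and 7 of the 51 remained called. Higher probes made up 84.2% of the calls, 69.6% after quantile normalization and 98.3% when arrays were centred and not divided by their SD. With array background as a covariate, 423 were higher and 52 lower, and 239 of the 272 and 16 of the 51 remained called. The lower set thus moved most with the scale, with array background and with those arrays. One DR array weighed most, since 163 probes were higher and 24 lower without DR replicate 11.

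The gluconeogenesis and glycogen list had the highest share of called members among all 55 lists. Of its 20 tested members, 5 were higher (25%) and none lower, 17 had a positive change, and the list median was 0.17 against 0.00118 over all genes. *Got1*, the cytosolic aspartate aminotransferase of the malate-aspartate shuttle, read 7.76 to 8.33 (median 7.98) in DR and 8.03 to 9.68 (median 8.64) in Rapa + DR. The ranges overlapped between 8.03 and 8.33, all 12 Rapa + DR mice lay above the DR median, and the rise was 1.6-fold (log2 change 0.68 ± 0.14 SE, adjusted p = 0.0046). *Mdh1*, its partner malate dehydrogenase in the cytosol, rose by 0.48 ± 0.12 (adjusted p = 0.019, and 0.0554 without DR replicate 11), and a second probe of the gene was called as well. *Slc37a4*, which carries glucose 6-phosphate into the endoplasmic reticulum for its final hydrolysis, ranged from 7.21 to 8.11 (median 7.75) in DR and from 7.68 to 8.55 (median 8.25) in Rapa + DR. That is a 1.47-fold rise (0.55 ± 0.13, adjusted p = 0.00988). *Slc2a2*, the glucose transporter GLUT2 of the hepatocyte membrane, ran from 9.55 to 10.8 (median 10.4) in DR and from 10.3 to 12 (median 11.1) in Rapa + DR. Its rise of 0.67 ± 0.19 (adjusted p = 0.0413) was less secure than the others, and its call was lost on leaving out any 1 of 14 of the 23 arrays, with an adjusted p of up to 0.104 (without DR replicate 11). It was also lost with array background as a covariate (0.32) and without the 6 arrays of low background (0.362). Its other 2 probes changed by 0.42 and 0.6 and were not called. *Pck1*, the gatekeeper enzyme of gluconeogenesis, had a change of 0.48 ± 0.16 that missed the threshold (adjusted p = 0.0866).

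**Figure D2:**
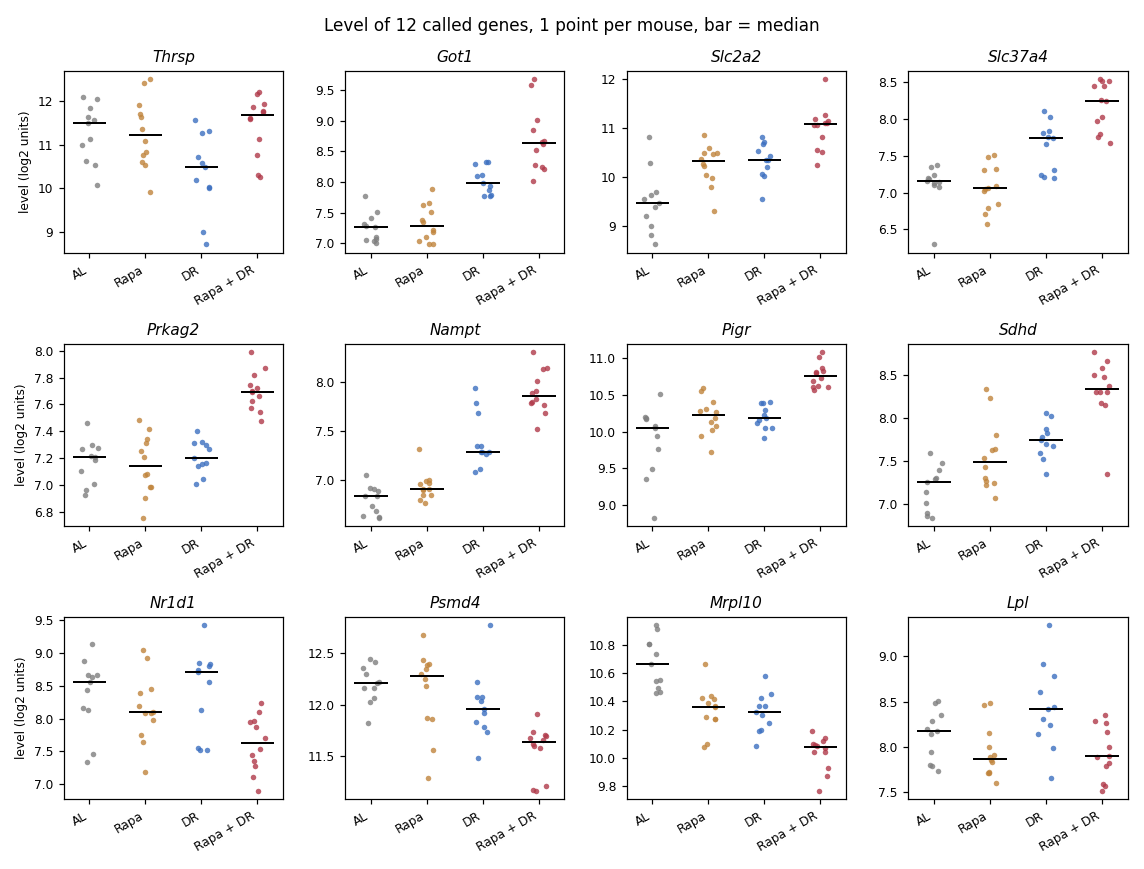
Log2 level of 12 called genes in each mouse of the AL, Rapa, DR and Rapa + DR groups, bars at the medians. For Prkag2 the 12 Rapa + DR mice sit between 7.48 and 7.99, above the 11 DR mice between 7.01 and 7.4, and for Nr1d1 they sit between 6.9 and 8.23 against 7.52 and 9.42 in DR.

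The starts of 4 higher genes of fuel handling are shown because each holds the letters AGGTCA. For *Slc37a4* this is true of only 1 of its 3 starts. The search took AGGTCA alone, with no condition on the bases around it. Many liver nuclear receptors bind this short site. One is REV-ERB alpha, whose gene *Nr1d1* had the largest fall among called genes, and whether it acts on these starts was not tested. The sequences are the 250 bases before a RefSeq start in build GRCm38.p6, read 5′ to 3′ along the gene, with that site (or its reverse complement) in capitals.
Got1, chr19:43524606-43524855, minus strand: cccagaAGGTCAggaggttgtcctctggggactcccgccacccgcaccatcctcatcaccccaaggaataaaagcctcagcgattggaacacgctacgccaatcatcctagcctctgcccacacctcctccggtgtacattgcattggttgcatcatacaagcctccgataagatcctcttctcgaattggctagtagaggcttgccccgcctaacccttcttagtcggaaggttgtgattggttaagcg
Slc2a2, chr3:28697653-28697902, plus strand: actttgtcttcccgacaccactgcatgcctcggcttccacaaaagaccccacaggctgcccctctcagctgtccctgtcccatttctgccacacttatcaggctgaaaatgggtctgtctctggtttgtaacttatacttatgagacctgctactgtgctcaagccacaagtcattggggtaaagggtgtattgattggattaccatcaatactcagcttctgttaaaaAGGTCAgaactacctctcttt
Slc37a4, chr9:44396696-44396945, plus strand, 1 of its 3 starts: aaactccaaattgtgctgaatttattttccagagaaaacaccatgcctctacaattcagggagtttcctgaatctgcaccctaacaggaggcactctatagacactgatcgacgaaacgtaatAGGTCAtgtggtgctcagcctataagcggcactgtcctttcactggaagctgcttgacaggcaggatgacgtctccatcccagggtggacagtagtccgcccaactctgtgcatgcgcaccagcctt
Nampt, chr12:32820085-32820334, plus strand: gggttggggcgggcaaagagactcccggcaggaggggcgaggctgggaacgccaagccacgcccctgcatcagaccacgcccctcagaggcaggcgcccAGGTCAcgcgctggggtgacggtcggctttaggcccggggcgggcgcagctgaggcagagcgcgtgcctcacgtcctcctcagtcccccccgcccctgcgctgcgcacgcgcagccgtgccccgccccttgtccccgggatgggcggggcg

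On both strands, AGGTCA was present in 16.2% of 197 promoters of higher genes, 4.65% of 43 promoters of lower genes, 12% of promoters of all tested genes and 14% of all promoters. Promoters were on file for 161 of the higher and 36 of the lower genes. Of the other motifs searched, CACGTG (E-box) was in 8.12% of promoters of higher genes and 7.85% of those of tested genes, TGACGTCA (CRE) in 0.508% and 2.25%, TTATGTAA (D-box) in 2.54% and 0.628%, and AGAACA (a short glucocorticoid receptor site) in 10.7% and 12.1%. These are matches of letters and not mapped binding sites, and the genes shown were chosen after the search.

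The tricarboxylic acid cycle and pyruvate dehydrogenase followed, with 5 of 25 tested members higher (20%), none lower and a median change of 0.11. *Sdhd*, a membrane anchor of succinate dehydrogenase, ranged from 7.35 to 8.05 (median 7.74) in DR and from 7.34 to 8.76 (median 8.33) in Rapa + DR. A single Rapa + DR mouse sat just below the DR range and the other 11 lay above the DR median (0.59 ± 0.13, adjusted p = 0.00825). *Idh2*, the mitochondrial isocitrate dehydrogenase that makes NADPH, went from 9.42 to 9.98 (median 9.73) in DR to 9.83 to 10.3 (median 10.1) in Rapa + DR (0.37 ± 0.08, adjusted p = 0.009). *Aco1*, the cytosolic aconitase that doubles as an iron sensor, rose by 0.49 ± 0.12. *Pdk1*, a kinase that switches pyruvate dehydrogenase off, was also among the 5 (0.56 ± 0.14, adjusted p = 0.0157), so the list holds a brake as well as enzymes of the cycle. The call of *Pdk1* was lost with array background as a covariate (adjusted p = 0.114) and without the 6 arrays of low background (0.207). In the respiratory chain few genes moved. *Uqcrb*, a subunit of complex III, ran from 9.63 to 10.7 (median 10.1) in DR and from 10.2 to 11.2 (median 10.8) in Rapa + DR (0.68 ± 0.16, adjusted p = 0.0141). With *Sdhd* it made up the 2 called genes of 36 in complexes II to V, whose median change of -0.09 turned to 0.03 when arrays were not divided by their SD. Of 33 complex I subunits only *Ndufb10* was called (adjusted p = 0.0487), and leaving out any 1 of 18 of the 23 arrays, quantile normalization or no division by SD ended that call (p of up to 0.101, without DR replicate 11).

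Amino acid breakdown contributed 6 higher genes of 37 tested (16.2%) and none lower, with a list median of 0.07 that turned to -0.07 with array background as a covariate. *Got1* counts here as well. *Aass*, which opens the lysine pathway, was 7.15 to 7.79 (median 7.55) in DR and 7.57 to 8.62 (median 8.02) in Rapa + DR (0.5 ± 0.1, adjusted p = 0.00376). *Aldh6a1*, of valine and pyrimidine breakdown, ranged from 9.78 to 10.6 (median 10.5) in DR and from 10.5 to 11 (median 10.8) in Rapa + DR (0.5 ± 0.12, adjusted p = 0.0115). *Bckdhb*, a subunit of the branched-chain keto acid dehydrogenase, rose by 0.43 ± 0.11 (adjusted p = 0.0216). For these 3 genes all 12 Rapa + DR mice exceeded the DR median. *Aldh6a1* lost its call without the 6 arrays of low background (adjusted p = 0.0624), and it and *Bckdhb* when arrays were not divided by their SD. *Slc38a4*, an amino acid transporter of the liver, showed the second largest increase among called genes, from 8.09 to 9.2 (median 8.76) in DR to 8.27 to 10.4 (median 9.4) in Rapa + DR. Its change of 0.76 ± 0.2 (adjusted p = 0.0225) lost its call without DR replicate 9, DR replicate 11 or Rapa + DR replicate 7, the adjusted p reaching 0.0606. *Slc25a13*, the mitochondrial aspartate-glutamate carrier that feeds both the urea cycle and the malate-aspartate shuttle, went from 6.52 to 7.06 (median 6.8) to 6.99 to 7.37 (median 7.1). This small rise (0.34 ± 0.06, adjusted p = 0.000457) held for all 12 mice, but a second, dimmer probe of the gene read -0.01. *Dmgdh*, of choline-derived one-carbon metabolism, rose by 0.47 ± 0.1.

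A gene of energy sensing had the lowest adjusted p of all tested genes. *Prkag2*, a regulatory gamma subunit of the AMP-activated kinase that binds adenine nucleotides, ranged from 7.01 to 7.4 (median 7.2) in DR and from 7.48 to 7.99 (median 7.69) in Rapa + DR, with no overlap (0.49 ± 0.07, adjusted p = 9.97e-05). *Nampt*, which makes the NAD precursor used by sirtuins, went from 7.08 to 7.94 (median 7.29) to 7.52 to 8.3 (median 7.86), a 1.41-fold rise (adjusted p = 0.000485). Only 3 DR mice reached into the Rapa + DR range. A second, near-background probe of *Nampt* changed by 0.07 and was not called. These were the 2 called genes of 17 tested for the kinase and sirtuins (11.8%), and the list median was -0.01 and turned to between 0.02 and 0.09 under the 5 other scalings and fits tried.

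Lipid genes moved in both directions. *Thrsp*, a regulator of fatty acid synthesis in the liver, had the largest change of any called gene. It ranged from 8.72 to 11.6 (median 10.5) in DR and from 10.3 to 12.2 (median 11.7) in Rapa + DR, a 2.14-fold rise (1.1 ± 0.31, adjusted p = 0.0373) in which 10 of 12 mice passed the DR median. Leaving out any 1 of 10 arrays ended its call (adjusted p of 0.102 without DR replicate 11), and so did a fit with array background as a covariate or without the 6 arrays of low background. It was the only called gene of 21 for lipogenesis, 14 of which had a positive change. Their median of 0.21 dropped to 0.03 with array background as a covariate and to 0.04 without those 6 arrays. *Me1*, the malic enzyme that supplies NADPH to that pathway, ran from 7.93 to 8.89 in DR and from 8.9 to 9.54 in Rapa + DR. On the lower side was *Lpl*, the lipase that takes up fatty acids from lipoproteins, with 7.65 to 9.34 (median 8.42) in DR and 7.52 to 8.35 (median 7.9) in Rapa + DR, and all 12 mice below the DR median (-0.51 ± 0.14, adjusted p = 0.0254, lost without DR replicate 1, 2 or 9 with a p of up to 0.0582). *Cpt2*, which completes the entry of fatty acids into mitochondria, fell by 0.36 (adjusted p = 0.0225, and 0.0682 without DR replicate 11). It was the only called gene of 24 for fatty acid oxidation and ketogenesis.

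Of 10 carbonic anhydrases and carboxylesterases 2 were higher, as were 2 of 16 glucuronosyltransferases and sulfotransferases and 1 of 29 genes of P450 families 1 to 3, with none lower. Of 43 glutathione and NRF2 genes none was higher and 1 lower. *Ces1g*, a liver carboxylesterase, went from 7.09 to 7.93 (median 7.47) to 7.63 to 8.43 (median 8.18), 1.53-fold up (0.62 ± 0.11, adjusted p = 0.0011), and *Aadac*, a related deacetylase, rose by 0.38 ± 0.09. Outside these lists, *Akr1c14*, a hydroxysteroid dehydrogenase, moved from 6.56 to 7.44 (median 6.83) to 6.95 to 7.88 (median 7.53), with an adjusted p of 0.000457. Its second probe was dimmer and changed by 0.17, short of the threshold. *Dpyd*, which starts pyrimidine breakdown, changed by 0.58 ± 0.11 and its groups overlapped only between 8.04 and 8.13. *Ugt2b1*, a glucuronosyltransferase, rose by 0.68 ± 0.18 (adjusted p = 0.0241, lost without DR replicate 7, 9 or 11) and *Sult1d1*, a sulfotransferase, by 0.54 ± 0.13 (adjusted p = 0.0574 without the 6 arrays of low background). *Ugt2b1* and *Ces1g* belong to families of near-identical genes, which a probe may not tell apart.

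Immune genes of the hepatocyte showed scattered changes and no common one. *Pigr*, the receptor that carries immunoglobulin A into bile, ranged from 9.91 to 10.4 (median 10.2) in DR and from 10.6 to 11.1 (median 10.8) in Rapa + DR, with no overlap (0.57 ± 0.12, adjusted p = 0.00465). The class I histocompatibility genes *H2-D1* and *H2-K1* rose by 0.44 ± 0.1 and 0.34 ± 0.08, 2 of 22 genes of antigen presentation (9.09%). They are close relatives and may share signal. Complement factor B (*Cfb*) went from 9.49 to 10.3 (median 9.83) to 9.93 to 11 (median 10.3), whereas *Mbl1*, a mannose-binding lectin that starts complement, fell from 10.6 to 11.4 (median 11) to 9.98 to 10.9 (median 10.4). The fall of *Mbl1* (-0.48 ± 0.13, adjusted p = 0.0362) was lost on leaving out any 1 of 10 arrays, with a p of up to 0.0799. None of 29 acute phase genes and none of 32 interferon-stimulated genes was called.

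The clock genes that changed were the pair of REV-ERB receptors, in opposite directions. *Nr1d1*, which encodes REV-ERB alpha, a heme-binding repressor of the clock and of gluconeogenic genes, ranged from 7.52 to 9.42 (median 8.7) in DR and from 6.9 to 8.23 (median 7.62) in Rapa + DR. It was 1.74-fold lower (-0.8 ± 0.22, adjusted p = 0.0292), all 12 mice lay below the DR median, and its second probe was called lower too, at -0.52. The DR mice were split, with 4 of them inside the Rapa + DR range and the others above it, and its call was lost without any 1 of 9 arrays (p of up to 0.0594, without DR replicate 1). *Nr1d2*, for REV-ERB beta, rose by 0.41 ± 0.12 (adjusted p = 0.0406). Its call was lost without any 1 of 11 arrays (p of up to 0.107, without DR replicate 11) and when arrays were not divided by their SD. The other 18 tested clock genes were not called, *Clock* with a change of 0.03 and *Arntl* with 0.06, and the time of day at which livers were taken is not given in the sources used here.

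Single genes of other roles were higher too. *Hnrnpa1*, a splicing repressor, was 6.92 to 7.27 (median 7.17) in DR and 7.32 to 7.89 (median 7.54) in Rapa + DR, without overlap (0.39 ± 0.06, adjusted p = 0.000457), and was the only one of 33 splicing genes called. The histone gene *H3c14* rose by 0.62 ± 0.09 (adjusted p = 0.000366), while a second probe of it read -0.11, and histone genes of 1 type differ little in sequence. The histone genes *H2bc7* and *H2bc9*, which were not called, had changes of -0.24 and -0.14. *Rbm3*, which encodes an RNA-binding protein induced by cold, changed by 0.49 ± 0.14 (adjusted p = 0.0442), a call lost without any 1 of 14 arrays. Its list of cold-inducible and heat shock proteins had 2 higher and 1 lower of 22.

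Among the lower genes were members of the proteasome and of the mitochondrial ribosome, though few of either list were called. Of 41 proteasome genes, 3 were lower (7.32%) and none higher. *Psmd4*, a ubiquitin receptor of the regulatory particle, read 11.5 to 12.8 (median 12) in DR and 11.2 to 11.9 (median 11.6) in Rapa + DR (-0.43 ± 0.12, adjusted p = 0.0428). *Psma5*, of the catalytic core, and *Psmc2*, an ATPase of the regulatory particle, fell by 0.37 and 0.28. All 12 Rapa + DR mice lay below the DR median for each of the 3, but every one lost its call without DR replicate 11, at adjusted p-values of 0.116, 0.0674 and 0.0611. In all, *Psmd4* lost its call without any 1 of 10 arrays, *Psma5* without any 1 of 5 and *Psmc2* without that array alone. Mitochondrial ribosomal proteins gave 3 lower of 69 (4.35%) and none higher. *Mrpl10*, of the large subunit, went from 10.1 to 10.6 (median 10.3) to 9.77 to 10.2 (median 10.1), a fall of 0.28 (SE 0.06, adjusted p = 0.00739) that kept its call without any single array and without the 6 arrays of low background, but not without division by SD. *Mrps7* and *Mrps18b*, of the small subunit, fell by 0.27 and 0.33. Second probes of *Mrpl10*, *Mrps7* and *Mrps18b* changed by -0.12, -0.18 and -0.15 and were not called. The medians of the proteasome and mitochondrial ribosome lists, -0.05 and -0.06, turned to 0.01 and 0.0026 when arrays were not divided by their SD, and the second to 0.03 with array background as a covariate.

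Single genes with other roles made up the rest of the decreases. *Hspb6*, a small heat shock protein, ranged from 9.84 to 10.5 (median 10.4) in DR and from 9.75 to 10.3 (median 9.94) in Rapa + DR (-0.37 ± 0.08, adjusted p = 0.00383). *Slc40a1*, the iron exporter ferroportin, fell by 0.36 (adjusted p = 0.00745), from 11.5 to 12 in DR to 11.1 to 11.7 in Rapa + DR. *Tubb4b*, a beta tubulin, fell by 0.43 (adjusted p = 0.0115), and *Abcb4*, the phospholipid pump of the bile canaliculus, by 0.42 (adjusted p = 0.0441). The call of *Abcb4* was lost without any 1 of 15 arrays, with a p of up to 0.12 (without DR replicate 11). Of the 23 lower genes named by the rule, 20 lost their call without the 6 Rapa + DR arrays of low background, as did 10 of the 42 higher genes so named. *Mrpl10*, *Hspb6* and *Eif2b5*, a subunit of the exchange factor for initiation factor eIF2, were the 3 lower genes that kept it. All 3 lost it when arrays were not divided by their SD. *Eif2b5* also lost its call without any 1 of 8 arrays, with an adjusted p of up to 0.0759 (without Rapa + DR replicate 2). Its other probes changed by -0.16 and -0.1 and were not called.

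Lists tied to mTOR signalling held few calls or none, near the 2.23% over all genes. Of 56 cytosolic ribosomal proteins only *Rps3a1* was called, higher by 0.46, and of 34 translation factors only *Eif2b5*, lower at -0.26. None of 28 genes of the mTOR complexes and their regulators was called (median change -0.0025), with *Mtor* itself at -0.25 ± 0.08 (adjusted p = 0.0621). None of 11 FK506-binding immunophilins was called, nor any of 44 genes of autophagy and lysosome, 18 of insulin signalling, 15 glucocorticoid targets, 16 targets of PPAR alpha or 27 of the endoplasmic reticulum. In all, 22 of 55 lists had no called member. Of 23 tested genes that the paper names, *Il15* was called higher (0.2 ± 0.06, adjusted p = 0.046) and *Srxn1* lower (-0.33 ± 0.1, adjusted p = 0.048). The first call was lost on leaving out any 1 of 14 arrays (p of up to 0.108, without DR replicate 11) and the second on leaving out any 1 of 18 (up to 0.0949, without DR replicate 8), and both without the 6 arrays of low background.

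**Figure D3:**
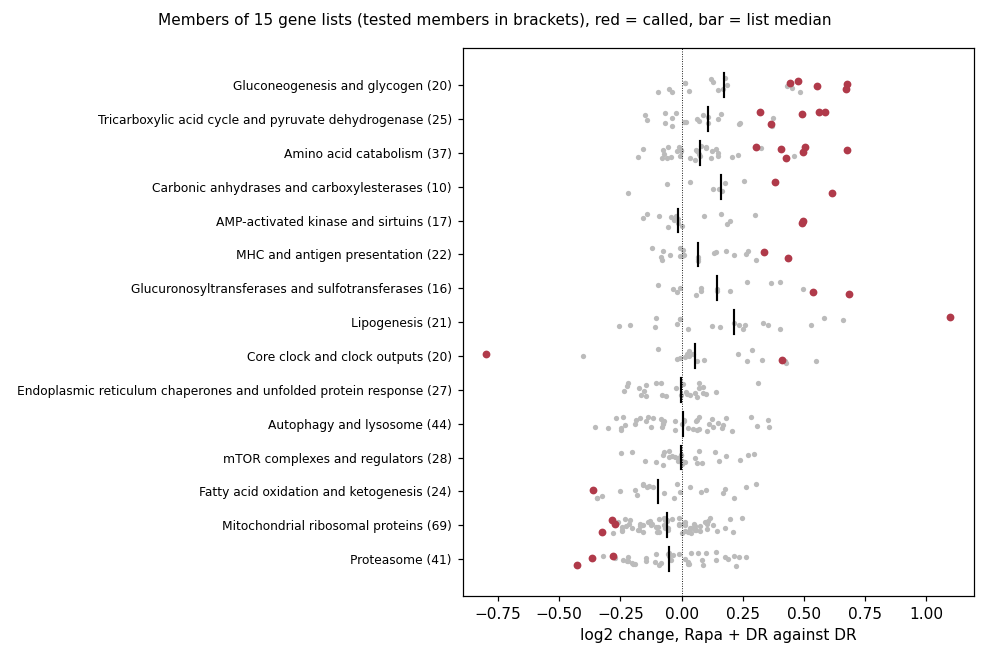
Log2 change between Rapa + DR and DR of the tested members of 15 lists, 1 point per gene, red where called and grey otherwise, with a bar at the list median. Gluconeogenesis has 5 red points to the right of 0 and the proteasome has 3 to the left, while the mTOR and autophagy lists have none.

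The response to rapamycin under restriction was then set beside the response under ad libitum feeding, which was measured on other mice and shares no array with it. The paper's supplement gives a lower liver level of rapamycin in Rapa + DR than in Rapa mice. Its main text calls these levels not significantly different. A difference in response may thus go with diet or with drug level, which cannot be told apart. In AL mice the drug changed many more genes, 834 higher (8.11%) and 645 lower (6.27%). Of the 187 genes higher in Rapa + DR, 38 were also called higher in Rapa (20.3% of the first set and 4.56% of the second), and of the 42 lower genes, 13 were also lower (31% and 2.02%). The sign was shared by 137 of the 187 and by 38 of the 42, while 46.4% of all genes had a positive change in Rapa against AL. In 4 genes the calls were opposite. Over the 10279 genes the changes under the 2 diets correlated at 0.38, as a description, since genes are not independent replicates. *Uqcrb* was a gene with like responses, at 0.57 ± 0.16 in AL mice, and so were *Slc2a2* (0.74 ± 0.19), *Hnrnpa1* (0.38 ± 0.06), *Akr1c14* (0.43 ± 0.1) and *Mrpl10* (-0.33 ± 0.06). Genes that rapamycin raised in AL mice had a median change of 0.39 there and of 0.11 in restricted mice. Genes called higher in restricted mice had a median of 0.38 there and of 0.11 in AL mice. In each case the first value comes from the arrays that selected the genes, so the drop is partly built in.

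**Figure D4:**
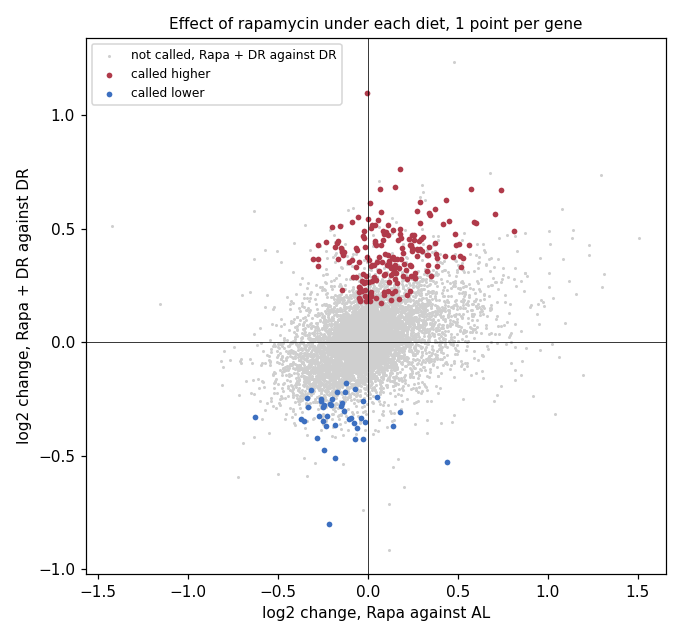
Log2 change with rapamycin in ad libitum mice (horizontal) and in restricted mice (vertical) for 10279 genes, with the 187 genes called higher and the 42 called lower in restricted mice in colour. Most coloured points share the sign of both axes, 137 of the higher and 38 of the lower genes.

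The difference between the 2 responses was tested as an interaction. It passed an adjusted p of 0.05 for 258 genes (2.51%), 129 above and 129 below (1.25% each). The count moved far with the processing. Of probes, 194 were above and 177 below, against 42 and 10 when arrays were not divided by their SD, 121 and 93 without AL replicate 6 and 340 and 394 without AL replicate 3. The interaction holds the Rapa against AL change with its sign turned, so an overlap with the calls of that comparison is partly built in. Of the 129 below, 108 were called higher in Rapa against AL and 126 were not called in Rapa + DR against DR. Of the 129 above, 75 were called lower in Rapa against AL and 99 were not called in Rapa + DR against DR. Proteins that fold and move secreted proteins in the endoplasmic reticulum were an example, with 11 of 27 genes higher in Rapa against AL, none in Rapa + DR against DR, and 5 with an interaction. *Calr*, the chaperone calreticulin, had means of 8.41 in AL, 9.1 in Rapa, 8.34 in DR and 8.34 in Rapa + DR. *Creld2*, induced by endoplasmic reticulum stress, had means of 8.7, 9.9, 8.49 and 8.34 in the same order, and *Cyp51*, of cholesterol synthesis, 8.34, 9.65, 9.23 and 9.48. Among splicing genes 19 of 33 were higher in Rapa against AL and 1 in Rapa + DR against DR, with 5 interactions. In the other direction *Cyp2b10*, the drug-inducible cytochrome P450, fell by 1.16 in AL mice and had a change of 0.17 ± 0.21 in restricted mice.

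A smaller number of genes with an interaction were also called in restricted mice, some of them with a change of opposite sign in AL mice. The interaction was positive for 30 of the genes called higher in Rapa + DR and negative for 3 of those called lower. It includes the Rapa + DR against DR change, so these shared signs are partly built in. *Prkag2* had means of 7.17 in AL, 7.15 in Rapa, 7.21 in DR and 7.7 in Rapa + DR (interaction 0.51 ± 0.1, adjusted p = 0.00278). *Ces1g* stood at 7.18, 7.19, 7.51 and 8.12. *Idh2* fell in Rapa against AL, by 0.3, and rose in Rapa + DR against DR, with means of 9.02, 8.71, 9.69 and 10.1 (interaction 0.67 ± 0.12, adjusted p = 0.00147). Among genes of amino acid breakdown, 9 of 37 were lower in Rapa against AL and 1 higher, and 5 had a positive interaction. Over all genes 1.25% had a positive interaction. Restriction alone, in a comparison that shares the DR arrays, changed *Got1* by 0.77, *Nampt* by 0.61, *Slc37a4* by 0.51, *Slc2a2* by 0.84 and *Idh2* by 0.67, and *Thrsp* by -0.93.

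**Figure D5:**
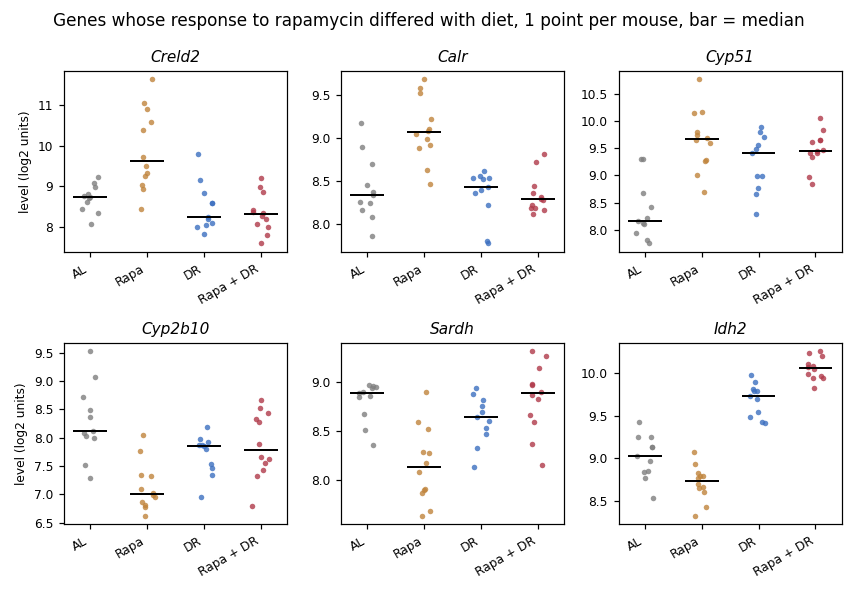
Log2 level of 6 genes with an interaction in each mouse of the 4 groups, bars at the medians. Calr and Creld2 have their highest means in the Rapa group, at 9.1 and 9.9, and Idh2 has means of 8.71 in Rapa and 10.1 in Rapa + DR.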

How the data were processed

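Liver RNA of 46 mice was measured on Illumina MouseRef-8 v2 arrays, 1 per mouse. Each deposited value is a standard score (z-score) of the authors, the log2 signal of a probe less the mean of all 25697 probes of that array, in units of their SD. In 92 further columns sample numbers carry no group, and these were not used. Signals are multiples of 0.1, which gave back each array's SD. To return to a log2 scale, each was multiplied by 1.34, the average SD of the arrays, and 7.05, their average log2 signal, was added. A change is thus on a log2 scale at a common spread, with no background subtracted, so it understates the change of dim probes.

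A probe counted as above background where it passed the upper tail of 0.02 of its array's dim signals, and the 14710 probes above it on at least 1 of the 46 arrays were tested. Of all probes 23978 carried 1 gene symbol and 1719 none. Where a gene had several probes, the brightest on average was used. The 4 group means were fitted by limma 3.58.1 (R 4.3.3, lmFit and eBayes, Benjamini-Hochberg), and ± after a change is its SE. An interaction (the change with rapamycin under restriction less its change under ad libitum feeding) was called on adjusted p alone. Array measures were compared by permutation tests with 100000 resamples. The fit was tested on simulated data. Lists were described by counts and medians only. The number of mice limits the precision.

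The members, the 55 lists and the tests were chosen with earlier results of these data known. Genes were named by a rule: among called genes above background on every array of DR or Rapa + DR, the 15 that rose most and the 15 that fell most, 5 each way for the interaction, up to 4 called members of a list or else its 2 members of lowest p, and the genes named in the paper. Alternatives were quantile normalization, centring without division by SD, normexp with an offset of 50, other filters and thresholds, array weights, array SD or background as a covariate, only the 23 arrays, the methods' t-test, a replicate block and each array left out. The fit without the 6 Rapa + DR arrays of lowest background was added after seeing the data. Replicate numbers did not pair the mice. Promoters came from RefSeq, GRCm38.p6. Python 3.11.15 with pandas 2.3.3 and matplotlib 3.10.9 was also used.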

Additional observations from a re-analysis of the deposited data

Results flagged for a closer look

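In 21 of the 137 genes named by the rule, the effect of rapamycin differed with diet, by the interaction test across all probes. Part of the rule names genes because they passed this same test, so the count is partly built in. Over all genes 2.51% passed it. Values are the log2 effect in restricted mice minus that in AL mice.

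It was positive for 13 genes. Liver enzymes led, with *Cyp2b10* at 1.33, *Gstt3* at 0.98, *Sardh* at 0.88 and *Gsta2* at 0.86, and *Serpina6*, the plasma carrier of glucocorticoids, stood at 0.91. Fuel enzymes had smaller differences, *Bckdhb* 0.705, *Idh2* 0.67 and *Slc25a13* 0.32. *H2-D1* was at 0.61, *Ces1g* at 0.61, *Tcn2*, a carrier of vitamin B12, at 0.58, *Apoh* at 0.54 and *Prkag2* at 0.51.

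It was negative for 8 genes. *Creld2* stood at -1.34 and *Calr* at -0.68, both of the endoplasmic reticulum. *H2bc7* and *H2bc9*, histone genes that differ little in sequence, were at -1.16 and -0.996. *Cyp51* was at -1.06, *Atp5pb*, of ATP synthase, at -1.01, *Gm4952* at -0.97 and *Psma5* at -0.51.

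The sign held for all 21 genes under each of the 6 scalings and fits tried. These settings reuse arrays on which the genes passed the test, so the shared sign is partly built in. The number still past the threshold was 21 after quantile normalization, 20 after normexp and 18 with array background as a covariate. That number was 12 without the 6 Rapa + DR arrays of low background and 3 when arrays were not divided by their SD.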

How the results depend on the processing

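For Rapa + DR against DR, with 272 probes higher and 51 lower, the counts were 268 and 117 after quantile normalization, 233 and 4 when arrays were not divided by their SD, 300 and 137 after normexp, 219 and 27 with no filter, 165 and 44 with probes above background on every array, 419 and 108 with array weights, 374 and 99 with array SD as a covariate, 423 and 52 with background as a covariate, and 376 and 94 with no limit on size. They were 108 and 9 at 30%, and 14 and 0 at an adjusted p of 0.001 (limma, 2570 probes at an unadjusted p under 0.05, and 249 higher and 40 lower by the methods' t-test at the main thresholds). Only 16 of the 51 lower probes were among the 52 with background as a covariate. Without the 6 Rapa + DR arrays of low background the counts were 277 and 21. With the replicate number as a block they were 190 and 25. Same-numbered DR and Rapa + DR mice correlated at -0.49 to 0.37, and 1 of 11 matched its own number best, so the numbers pair nothing.

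Leaving out each array gave 163 (without DR replicate 11) to 366 (without Rapa + DR replicate 8) higher probes and 24 (without DR replicate 11) to 63 (without DR replicate 6) lower. The lower count also moved beyond 1.5 times without DR replicate 7 (33), 9 (28) or 10 (29) and without Rapa + DR replicate 2 (33). Array measures differed by 0.0132 to 0.0612 in SD, -12.6 to -11 signal units in background and 3.21 to 4.51 percentage points in the share above background.

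The interaction, with 194 probes above and 177 below, gave 339 and 355 after quantile normalization, 42 and 10 without division by SD, 335 and 362 after normexp, 143 and 117 with no filter, 858 and 772 with array weights, 441 and 458 with array SD and 350 and 158 with background as a covariate, 315 and 253 by the methods' t-test with Storey q-values, 190 and 95 without the 6 arrays of low background and 170 and 172 with the block. Leaving out each array gave 121 (without AL replicate 6) to 351 (without Rapa + DR replicate 8) above and 93 (without AL replicate 6) to 394 (without AL replicate 3) below, with moves beyond 1.5 times also without AL replicate 3 (340 above), 5 (115 below) or 7 (314 above and 335 below), Rapa replicate 11 (324 above) or DR replicate 6 (108 below).

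Of 65 called genes named by the rule, 21 higher and none of the lower genes kept the call under every setting tried, while 12 higher and 21 lower ones lost it without division by SD. Another probe had the opposite sign for *H3c14* (-0.11), *Il15* (-0.011), *Slc25a13* (-0.011), *Srxn1* (0.11), *Sult1d1* (-0.0075) and *Serbp1*, an RNA-binding protein (0.15 and 0.23). Of 29 such probes 22 had the same sign and 3 were called. The causes were not tested.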
